A study of Mus musculus with 8 samples.

Results

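The 32 genes described here mark the identity of blood vessel endothelium and its growth into new vessels, and they were taken by name from the deposited table of 55487 genes. All 32 were found by symbol, and all 32 had enough reads to enter the test, which covered 13648 genes. The hearts came from mice of the db/db strain, which lack a working leptin receptor and become obese and diabetic. One group of 4 libraries, called vehicle 1 to 4, came from db/db mice given vehicle, and the other group of 4, called DIZE 1 to 4, from db/db mice given DIZE, taken here as the antiprotozoal drug diminazene aceturate. Both groups carry the db/db genotype, so each difference below is between treated and untreated diabetic hearts. The age of the animals, the dose, the length of treatment, the part of the heart taken and whether any library pools animals are among the things not given in the sources used here. Nor is it given that each library is a different animal, and the p-values therefore measure the spread among these libraries, which may be technical.

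Endothelial cells line every vessel and, in the heart, form a dense capillary bed beside the muscle cells as well as the endocardium of the chambers. VEGF, made largely by muscle and other tissue cells, signals through the receptors Kdr and Flt1, while angiopoietins signal through Tek and Tie1, and Notch signalling from Dll4 to Notch1 limits sprouting. Transcription factors of the ETS and SOXF families, with the flow-responsive factor Klf2, keep the endothelial genes expressed.

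Total counts per library lay between 7447664 and 10161623, and each of the 32 genes had between 80 and 5663 reads in every library. Levels are in CPM, read counts scaled by a library's reads in tested genes and its TMM factor, and values with ± are mean and SD over the 4 libraries of a group. The heart label was checked with 13 cardiomyocyte genes, all tested, whose summed level was 40911 CPM in vehicle 1, between 56145 and 66663 CPM in vehicle 2 to 4, and between 59565 and 68744 CPM with DIZE. Vehicle 1 stood apart and had the lowest cardiomyocyte sum. Its sum for 7 atrial muscle genes was the highest (938 CPM, against 469 CPM in vehicle 4 and 109.5 to 255 CPM elsewhere). So were its sums for 12 macrophage genes (1378 CPM, against 728 to 852 CPM elsewhere) and 13 fibroblast genes (5079 CPM, against 3154 to 4816 CPM elsewhere).

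None of the 32 genes passed the test at an adjusted p of 0.05 (edgeR quasi-likelihood test with Benjamini-Hochberg adjustment over the 13648 genes), a test that called 0.0366% of all genes and 0.0147% as lower. The fitted level was lower in DIZE for 25 genes and higher for 7, where 51.8% of all genes tested were lower. The median log2 fold change of the 32 was -0.21, beside -0.01 for all genes. At an unadjusted p under 0.05, 8 of the 32 were lower (10.3% of all genes tested were) and 1 was higher (9.11% of all genes tested were). The groups did not overlap, with every DIZE library below every vehicle library, for 3 of the 32, Ptprb, Icam2 and Ly6c1 (5.26% of all genes tested), and none had every DIZE library above every vehicle library (7.17% of all genes tested). Counts under other tools differed: DESeq2 called 3 of the 32 (Icam2, Ptprb and Sox7, all lower) among 4.44% of all genes (2.51% lower), and limma-voom with library weights called 2 (Icam2 and Sox7, both lower) among 4.11% (2.48% lower). For lower levels in bulk heart tissue, fewer endothelial cells, less RNA per endothelial cell and more RNA from other cells cannot be told apart.

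**Figure D1:**
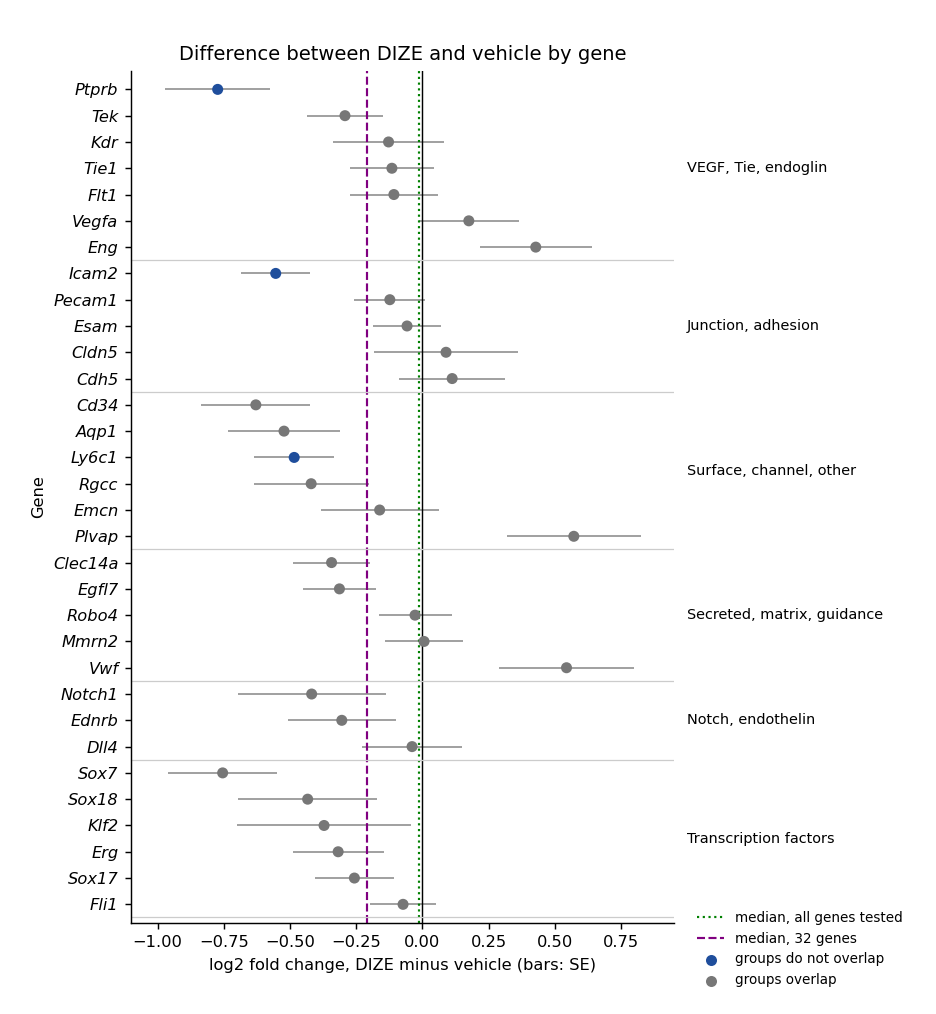
Log2 fold change, DIZE minus vehicle, for the 32 genes grouped by role (horizontal axis; points are the edgeR estimate, bars its SE, n = 4 libraries per group). 25 points lie left of 0 and 7 right of it, the 3 genes whose groups do not overlap are in blue, and the dashed and dotted lines mark the medians of the 32 genes (-0.21) and of all genes tested (-0.01).

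The receptors of VEGF, angiopoietin and TGF-beta family ligands were grouped with the ligand gene Vegfa and the phosphatase gene Ptprb. Of this group, Ptprb had the largest difference (ENSMUSG00000020154, chromosome 10, 116275523 to 116389535 on GRCm38). Its product is the vascular endothelial phosphatase that takes phosphate off Tek. Vehicle 1 to 4 had Ptprb levels of 206, 143, 267 and 152 CPM, and DIZE 1 to 4 had 111, 90.9, 115 and 133 CPM. Its highest DIZE library lay below its lowest vehicle library, and the gap between those 2 libraries was smaller than the spread within either group. The group means were 192 ± 57.4 and 112 ± 17.1 CPM, a fitted difference of 1.71-fold (edgeR adjusted p = 0.104; log2 fold change -0.77 with an SE of 0.20, and SEs follow log2 values after ± below). DESeq2 gave an adjusted p of 0.0155, limma-voom 0.0851 and edgeR without a filter on low counts 0.0413, under which 1.37% of genes passed and 0.8% passed as lower. With each library left out in turn, the log2 fold change of Ptprb stayed between -0.89 and -0.57.

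Tek, the receptor of the angiopoietins, was at 108, 70.5, 91.3 and 76.7 CPM in vehicle and 65.1, 65.8, 79.3 and 72.7 CPM in DIZE, and the groups overlapped (log2 -0.29 ± 0.14, edgeR adjusted p = 0.293). Without vehicle 1 the log2 fold change of Tek was -0.17. Its partner Tie1, which has no well-established ligand of its own, was at 131 ± 25.1 and 121 ± 19.1 CPM (log2 -0.11, edgeR adjusted p = 0.719), and its log2 fold change was -0.39 with the trend on GC content and length removed. Kdr, the main signalling receptor for VEGF, was at 167, 210.2, 371 and 204 CPM in vehicle and at 206 to 229 CPM in DIZE. Vehicle 3 was far above the other 7 libraries, whose values ran from 167 to 229 CPM. The log2 fold change of Kdr was -0.13 ± 0.21 (edgeR adjusted p = 0.771) and turned to 0.17 without vehicle 3. Flt1, which binds VEGF and also exists as a soluble trap for it, was at 208 ± 28.6 and 193 ± 42.0 CPM (log2 -0.11 ± 0.17, edgeR adjusted p = 0.752).

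Eng and Vegfa were on the higher side. Eng encodes endoglin, a coreceptor for BMP9 and TGF-beta on endothelial cells. Its level was 148, 279, 320 and 257 CPM in vehicle and 373, 273, 393 and 311 CPM in DIZE. Vehicle 1 was the lowest of the 8 libraries and DIZE 3 the highest, but DIZE 2 and DIZE 4 lay inside the vehicle range. The log2 fold change was 0.43 ± 0.21 (edgeR adjusted p = 0.293), and 0.24 without vehicle 1. Part of the exons of Eng lie opposite those of Fpgs on the other strand, at a mean of 13.7 CPM, and since the strand setting of the counting is not given in the sources used here, reads of the 2 genes may be mixed. Vegfa, the ligand itself, was at 259.5, 446, 469 and 526 CPM in vehicle and 514, 533, 427 and 445 CPM in DIZE. Vehicle 1 was again the lowest library, and without it the log2 fold change of Vegfa went from 0.18 ± 0.19 (edgeR adjusted p = 0.636) to -0.0012.

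Icam2, the junction and adhesion gene with the smallest p, encodes an adhesion molecule that endothelial cells carry without any stimulus (ENSMUSG00000001029, chromosome 11, 106377656 to 106388075). Its level was 33.2, 27.6, 26.4 and 33.5 CPM in vehicle and 19.9, 18.6, 21.0 and 22.8 CPM in DIZE. Every DIZE library lay below every vehicle library, and the 4 DIZE libraries were close to each other. From 30.2 ± 3.73 to 20.6 ± 1.80 CPM the fitted difference was 1.47-fold (log2 -0.55 ± 0.13, edgeR adjusted p = 0.0936), the smallest adjusted p of the 32 genes. Icam2 passed under DESeq2 (adjusted p = 0.0105) and limma-voom (adjusted p = 0.0368), and its log2 fold change stayed between -0.61 and -0.50 when each library was left out in turn.

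The other 4 junction genes differed little between the groups. Pecam1, the adhesion molecule CD31 and the most used marker of endothelium, was at 279.7, 205, 266 and 214 CPM in vehicle and 219.9, 189, 243 and 234 CPM in DIZE, which overlap over most of their range (log2 -0.12 ± 0.13, edgeR adjusted p = 0.642; -0.044 without vehicle 1). Cdh5, the VE-cadherin of the adherens junction, was at 262 ± 60.2 and 284 ± 72.9 CPM (log2 0.11 ± 0.20, edgeR adjusted p = 0.790). The highest Cdh5 levels were in vehicle 3 (349.6 CPM), DIZE 3 (349 CPM) and DIZE 4 (343 CPM). Esam, an immunoglobulin-like molecule of tight junctions, had a log2 fold change of -0.06, and Cldn5, the claudin of vessel tight junctions, of 0.09 (edgeR adjusted p = 0.834 and 0.886). Pecam1 and Cdh5 thus had opposite signs, and both had edgeR differences smaller than their standard error.

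Of the 6 surface and cytoplasmic markers, 5 were lower, 3 of them at an unadjusted p under 0.05, and 1 was higher. Their summed level was 815 to 1253 CPM in vehicle and 636 to 735 CPM in DIZE, with no overlap, whereas the sums of the other roles all overlapped. Aqp1, whose own groups overlapped, was the most abundant gene of this sum, at 433 and 301 CPM. Cd34, a sialomucin of capillary endothelium and of progenitor cells (ENSMUSG00000016494, chromosome 1, 194938819 to 194961279), was at 269, 136, 223 and 174 CPM in vehicle and 105, 112, 151 and 150.1 CPM in DIZE. The 2 highest libraries, vehicle 1 and vehicle 3, were well above all DIZE libraries, whereas vehicle 2 lay inside the DIZE range. Cd34 had a log2 fold change of -0.63 ± 0.21 (edgeR adjusted p = 0.154), and of -0.45 without vehicle 1. An annotated antisense transcript of Cd34, Gm16897, was at 2.00 CPM.

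Ly6c1, a membrane-anchored protein of heart capillaries (ENSMUSG00000079018, chromosome 15, 75044018 to 75048830), was at 231, 162, 153.5 and 224 CPM in vehicle and 153.3, 142, 134 and 122 CPM in DIZE. The groups did not overlap, but only just, since DIZE 1 lay directly below vehicle 3, and they did overlap under RLE size factors or upper quartile factors. With means of 193 ± 40.4 and 138 ± 13.02 CPM, the log2 fold change was -0.48 ± 0.15 (edgeR adjusted p = 0.142). Its near-identical neighbour Ly6c2, a monocyte gene with which reads may be shared, was at 0.886 ± 0.471 CPM in vehicle and 0.479 ± 0.459 CPM in DIZE, too low to be tested.

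Aqp1, the water channel of capillary endothelium and of red blood cells (ENSMUSG00000004655, chromosome 6, 55336432 to 55348555), had the highest level per length of the 32. It was at 581, 479, 309 and 362 CPM in vehicle and 364, 310.4, 209 and 321 CPM in DIZE. The 2 highest libraries were vehicle 1 and vehicle 2, and vehicle 3 lay below 3 of the 4 DIZE libraries. Its log2 fold change was -0.52 ± 0.21 (edgeR adjusted p = 0.218), or -0.35 without vehicle 1. Red cell genes were also lower in DIZE as a group: the summed level of 7 such genes was 197, 111, 210.4 and 101 CPM in vehicle and 64.0, 8.95, 30.3 and 78.5 CPM in DIZE, with no overlap. The 2 most abundant, the globin genes Hbb-bs and Hba-a1, had vehicle means of 71.4 ± 27.9 and 55.3 ± 19.97 CPM and DIZE means of 20.5 ± 15.1 and 16.7 ± 10.5 CPM (edgeR adjusted p = 0.177 and 0.151), while Slc4a1 was at 0.12 CPM. The order of the libraries differed between the red cell sum and Aqp1. Vehicle 3 had the highest red cell sum and the lowest Aqp1 level in vehicle. DIZE 2 had the lowest red cell sum, with Aqp1 at 310.4 CPM. The part of red cell RNA in the Aqp1 values was not tested.

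Rgcc, a cytoplasmic regulator of the cell cycle enriched in capillary cells, was at 51.0 ± 11.3 and 38.1 ± 11.0 CPM (log2 -0.42 ± 0.22, edgeR adjusted p = 0.310). Emcn, the sialomucin endomucin of capillaries and veins, was at 66.4 ± 20.2 and 59.3 ± 14.0 CPM (log2 -0.16 ± 0.22, edgeR adjusted p = 0.721). Plvap, which forms the diaphragms of endothelial pores and in the heart marks endocardium and veins, went the other way. It was at 12.2, 16.4, 10.7 and 20.01 CPM in vehicle and 18.2, 14.6, 30.8 and 24.6 CPM in DIZE. DIZE 3 and DIZE 4 exceeded every vehicle library, and DIZE 1 and DIZE 2 lay within the vehicle range. The log2 fold change of Plvap was 0.57 ± 0.25 (edgeR adjusted p = 0.245), the highest of the 32, and 0.37 without DIZE 3.

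**Figure D2:**
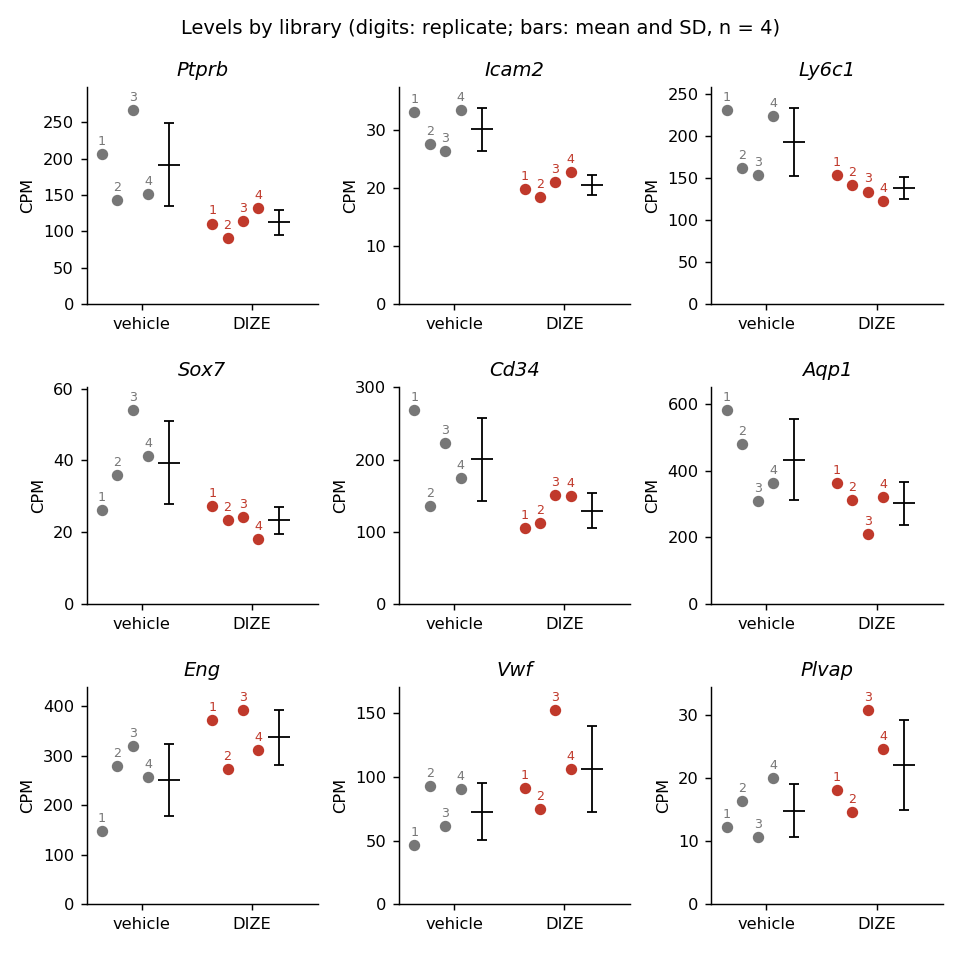
Level in CPM (vertical axis, from 0) of 9 of the 32 genes in each vehicle (grey) and DIZE (red) library, numbered by replicate, with the group mean and SD (n = 4). Ptprb, Icam2 and Ly6c1 show no overlap between the groups, while Sox7, Cd34, Aqp1, Eng, Vwf and Plvap overlap.

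Promoter sequences in the RefSeq table of GRCm38.p6 covered 20 of the 32 genes with 26 entries, each running from 250 bases before a transcription start to 50 bases after it. The sequence AGGAAG, the core bound by ETS factors such as Erg and Fli1, was searched on both strands. It occurred in 12 of the 26 entries (46.2%) and in 35.4% of all 32851 entries of the same length, and 11 of the 20 genes had it. AACAAT, a core bound by SOX factors, was in 11.5% of the entries and in 10.7% of all; GGGCGG, the GC box, in 46.2% and 35.7%; CACCC, a core bound by KLF factors, in 80.8% and 57.5%; and TATAAA in 11.5% and 13.6%. A match is a description of the letters and does not show that a factor binds there. The stretch before the start is printed for 4 genes that were lower in DIZE at an unadjusted p under 0.05, 5′ to 3′ on the gene's own strand. They are examples, and how alike the promoters are was not measured. Egfl7, also lower at that p, has 3 entries, is among the genes with AGGAAG and is not printed. Sox7, Ptprb and Icam2, lower at that p too, have no entry. Capitals mark AGGAAG or its reverse complement CTTCCT. Positions are chr1:194938571-194938818 (plus strand) for Cd34, chr12:58269291-58269508 (minus) for Clec14a, chr6:55336049-55336298 (plus) for Aqp1 and chr15:75048838-75049087 (minus) for Ly6c1.
Cd34: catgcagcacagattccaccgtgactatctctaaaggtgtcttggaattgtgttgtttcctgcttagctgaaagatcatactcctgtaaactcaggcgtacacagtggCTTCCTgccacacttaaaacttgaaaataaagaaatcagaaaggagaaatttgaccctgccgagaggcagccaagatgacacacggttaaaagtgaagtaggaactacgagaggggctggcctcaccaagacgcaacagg
Clec14a: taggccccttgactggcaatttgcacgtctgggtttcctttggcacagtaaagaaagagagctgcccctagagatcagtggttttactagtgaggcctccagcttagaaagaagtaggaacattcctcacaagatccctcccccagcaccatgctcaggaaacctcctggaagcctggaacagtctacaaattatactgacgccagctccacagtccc
Aqp1: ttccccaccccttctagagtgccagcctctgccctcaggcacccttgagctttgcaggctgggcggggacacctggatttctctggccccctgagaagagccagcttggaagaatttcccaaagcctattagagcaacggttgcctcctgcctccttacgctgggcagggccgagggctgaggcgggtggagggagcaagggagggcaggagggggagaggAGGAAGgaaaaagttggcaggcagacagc
Ly6c1: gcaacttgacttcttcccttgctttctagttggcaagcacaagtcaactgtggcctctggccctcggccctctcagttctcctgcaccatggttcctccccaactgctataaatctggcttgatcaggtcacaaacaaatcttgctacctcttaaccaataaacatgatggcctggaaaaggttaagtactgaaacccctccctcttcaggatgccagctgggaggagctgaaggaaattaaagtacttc

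The stretches before the starts of Cd34 and Aqp1 each held 1 such match, and those of Clec14a and Ly6c1 none, with Ly6c1 the one of the 4 that held TATAAA. Ly6c1 has 2 promoter entries, of which 1 is printed in part. It is among the 11 genes with AGGAAG, so its match lies outside the printed stretch. Their GC content was 46.4% for Cd34, 50.9% for Clec14a, 62.0% for Aqp1 and 48.4% for Ly6c1.

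Of the secreted, matrix and guidance proteins, Clec14a and Egfl7 were lower at an unadjusted p under 0.05. Clec14a, a lectin-like receptor of endothelial cells that binds the matrix protein encoded by Mmrn2, was at 60.3, 41.0, 47.5 and 41.4 CPM in vehicle and 36.7, 36.7, 43.0 and 33.5 CPM in DIZE. Only DIZE 3 lay above the lowest vehicle library (log2 -0.34 ± 0.15, edgeR adjusted p = 0.229). Without vehicle 1 its log2 fold change was -0.21. Mmrn2 itself, multimerin 2, was at 61.3 ± 11.2 and 61.5 ± 8.13 CPM (log2 0.01 ± 0.15, edgeR adjusted p = 0.989), with a sign that turned under upper quartile factors (-0.0023). Egfl7, a secreted factor of the vessel matrix and the host gene of miR-126, was at 103, 98.1, 130.2 and 103 CPM in vehicle and 88.8, 71.2, 87.6 and 102 CPM in DIZE (edgeR adjusted p = 0.241, log2 -0.31 ± 0.14). Only DIZE 4 was inside its vehicle range. Exons of Egfl7 overlap those of Agpat2 on the other strand, which at a mean of 82.8 CPM had a log2 fold change of 0.24 (edgeR adjusted p = 0.343), so shared reads could change the Egfl7 values. Robo4, a guidance receptor that stabilises vessels, was at 59.3 ± 8.36 and 58.2 ± 7.55 CPM (log2 -0.03, edgeR adjusted p = 0.934).

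Vwf, the clotting factor stored by endothelial cells and more abundant in veins and endocardium, was at 46.7, 92.9, 61.4 and 90.6 CPM in vehicle and 91.2, 74.6, 153 and 106 CPM in DIZE. DIZE 3 was the highest library and vehicle 1 the lowest, and DIZE 1 and DIZE 2 lay within the vehicle range. The log2 fold change of Vwf was 0.54 ± 0.26 (edgeR adjusted p = 0.274), and 0.32 without DIZE 3. Eng, Vwf and Plvap, the 3 genes with the most positive differences, thus shared DIZE 3 as their highest library. Vwf and platelet genes can overlap in source. The summed level of 7 platelet genes was 11.4 to 25.7 CPM in vehicle and 11.6 to 15.3 CPM in DIZE. Only 2 of the 7 had enough reads to be tested (median log2 -0.16). The part of platelet RNA in the Vwf values was not tested.

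All 3 genes of Notch and endothelin signalling were lower in the edgeR fit, and none at an unadjusted p under 0.05. Notch1, the receptor, was at 31.2, 46.7, 88.2 and 70.3 CPM in vehicle and 53.7, 42.0, 33.6 and 47.6 CPM in DIZE, with the vehicle libraries spread both above and below the DIZE range (log2 -0.42 ± 0.28, edgeR adjusted p = 0.429). Without vehicle 3 it was -0.16. Dll4, the ligand on arterial and tip cells, was at 27.4 ± 5.24 and 26.6 ± 6.44 CPM (log2 -0.04 ± 0.19, edgeR adjusted p = 0.932), and it overlaps Gm14207 on the other strand at 1.15 CPM. Ednrb, an endothelin receptor that on endothelium leads to release of nitric oxide, was at 62.6, 37.1, 62.1 and 32.4 CPM in vehicle and 36.7 to 41.1 CPM in DIZE (edgeR adjusted p = 0.431, log2 -0.30 ± 0.20). Its vehicle libraries formed a high and a low pair, and the 4 DIZE libraries lay below the high pair and close to the low pair. The log2 fold change of Ednrb was -0.15 without vehicle 1 and -0.46 without vehicle 4.

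The 6 transcription factors were all lower in the edgeR fit (Fli1 was at 0.023 with the GC trend removed, and Klf2 at 0.013 with the title number as a replicate block), with a median log2 fold change of -0.34, and 1 of them had an unadjusted p under 0.05. Sox7, a SOXF factor of developing and adult endothelium (ENSMUSG00000063060, chromosome 14, 63943673 to 63950732), was at 26.3, 35.9, 54.0 and 41.2 CPM in vehicle and 27.3, 23.6, 24.2 and 18.2 CPM in DIZE. Vehicle 2 to 4 lay above all DIZE libraries, and vehicle 1 lay just below DIZE 1. From 39.4 ± 11.6 to 23.3 ± 3.78 CPM the difference was 1.69-fold (log2 -0.75 ± 0.21, edgeR adjusted p = 0.118). Sox7 passed under DESeq2 (adjusted p = 0.0312), limma-voom (adjusted p = 0.0265) and edgeR without a filter (adjusted p = 0.0498), and its log2 fold change ranged from -0.91 to -0.56 with each library left out in turn.

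The related SOXF genes had smaller differences. Sox18 was at 51.8, 60.7, 110.2 and 61.3 CPM in vehicle and 71.2, 36.6, 59.6 and 42.6 CPM in DIZE (edgeR adjusted p = 0.383, log2 -0.43 ± 0.26), and without vehicle 3 the difference was -0.14. Sox17, which marks arterial endothelium, was at 26.8 ± 3.10 and 22.4 ± 3.90 CPM (log2 -0.26 ± 0.15, edgeR adjusted p = 0.3601). Of the ETS factors, Erg was at 40.4 ± 9.23 and 32.4 ± 4.50 CPM (log2 -0.32 ± 0.17, edgeR adjusted p = 0.327) and Fli1 at 35.0 ± 4.76 and 33.2 ± 2.41 CPM (log2 -0.07 ± 0.13, edgeR adjusted p = 0.780). Klf2, which blood flow induces, had vehicle levels between 31.4 and 80.6 CPM and DIZE levels between 28.3 and 72.8 CPM (edgeR adjusted p = 0.561, log2 -0.37 ± 0.33), the largest standard error of the 32. Without vehicle 4 the log2 fold change of Klf2 was -0.17 and without DIZE 4 it was -0.70, and Erg was at -0.21 without vehicle 1.

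The 32 genes differed between libraries of the same group as well as between the groups. Vehicle 3 was the highest of the 8 libraries for 15 genes and vehicle 1 for 10, whereas DIZE 2 was the lowest for 14. Relative to each gene's mean log2 CPM over the 8 libraries, the average over the 32 genes was 0.02, -0.02, 0.30 and 0.06 for vehicle 1 to 4, and -0.05, -0.30, -0.03 and 0.02 for DIZE 1 to 4. Vehicle 3 and DIZE 2 thus lay farthest from 0 and the other 6 libraries close to it. Without vehicle 3 the median log2 fold change of the 32 genes was -0.12, and 13 rather than 7 genes were higher; without DIZE 2 the median was -0.19, and 5 rather than 8 genes were lower at an unadjusted p under 0.05. Vehicle 1 combined the highest levels of Cd34, Tek, Aqp1, Rgcc, Emcn and Clec14a with the lowest of Eng, Vwf, Vegfa, Kdr and Notch1. The SD of log2 CPM was larger in vehicle for 23 genes and in DIZE for 9, with medians of 0.32 and 0.24, and no test of the spread was made.

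**Figure D3:**
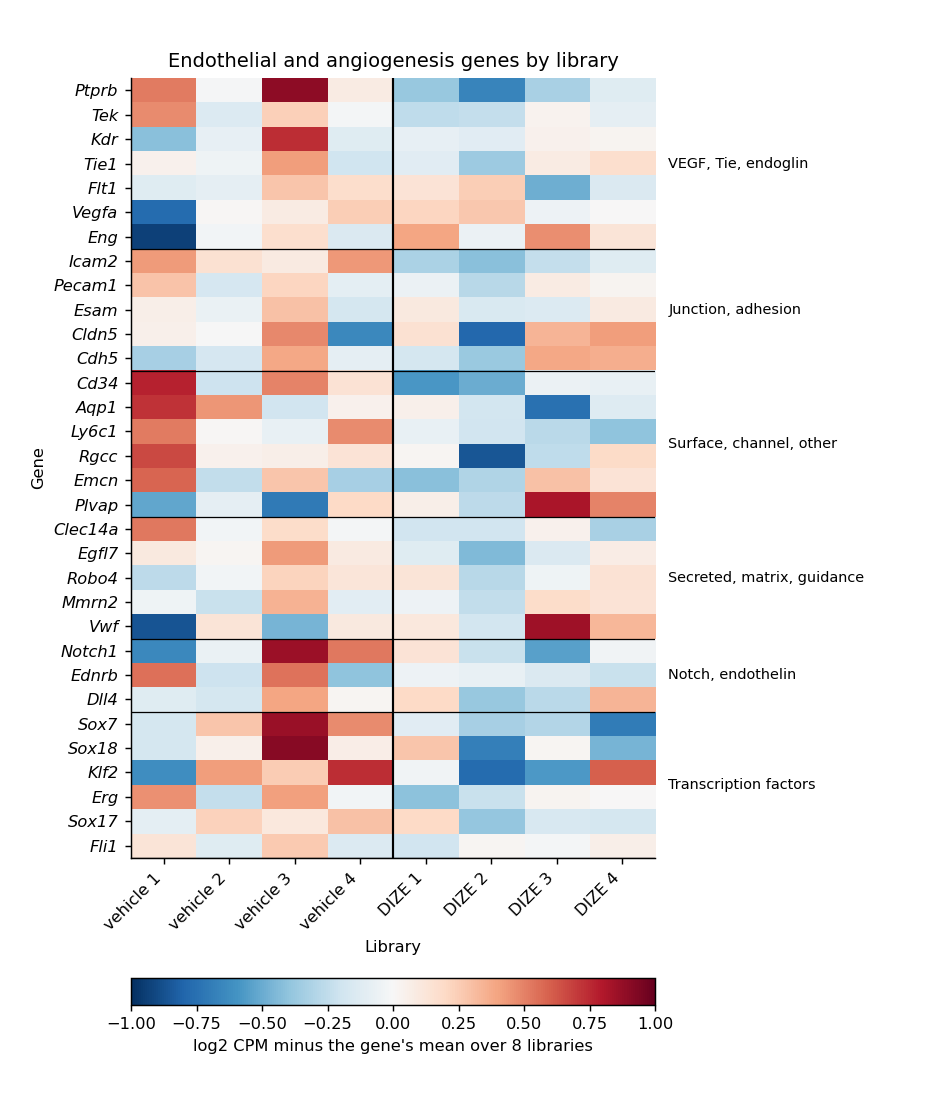
Level of each of the 32 genes (rows, by role) in each library (columns), as log2 CPM minus the gene's mean over the 8 libraries (colour scale). Vehicle 3 is above the gene's mean for 28 genes and DIZE 2 for 3, while vehicle 1 holds both high and low genes.

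Per kilobase of exon, Aqp1 had the highest level, at 165 ± 46.4 CPM per kb in vehicle and 115 ± 24.9 in DIZE, followed in order by Vegfa, Ly6c1, Eng, Cdh5, Rgcc, Sox18, Pecam1, Esam, Klf2, Egfl7, Tie1, Kdr, Cd34, Cldn5, Tek, Mmrn2, Flt1, Icam2, Emcn, Ptprb, Robo4, Erg, Ednrb, Fli1, Sox7, Clec14a, Plvap, Dll4, Vwf, Sox17 and Notch1. Notch1, the last, was at 4.15 ± 1.77 CPM per kb in vehicle and 3.11 ± 0.602 in DIZE. The ranges of neighbours in this order overlapped over the 8 libraries in all 31 pairs.

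The sample titles come in 2 forms, with and without the letters db, and each form holds 2 vehicle and 2 DIZE libraries; what the forms stand for is not given in the sources used here. Taking each form alone, 19 genes were lower in both, 3 (Eng, Vwf and Plvap) were higher in both and 10 differed in sign. The median log2 fold change was -0.23 in the libraries with db in the title (vehicle 1 and 2, DIZE 1 and 2) and -0.19 in the others. Ptprb was at -0.78 and -0.76 in the 2 forms, Icam2 at -0.66 and -0.46, Ly6c1 at -0.41 and -0.56, and Cd34 at -0.89 and -0.40. The difference between the forms, tested as an interaction in edgeR that was added after the data were examined, was not past the adjusted threshold for any of the 32 genes (smallest adjusted p = 0.528), and 4 of them had an unadjusted p under 0.05, where 8.84% of all genes did. These were Flt1 (0.30 and -0.54), Notch1 (0.30 and -0.96), Sox7 (-0.28 and -1.16) and Vegfa (0.57 and -0.19).

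**Figure D4:**
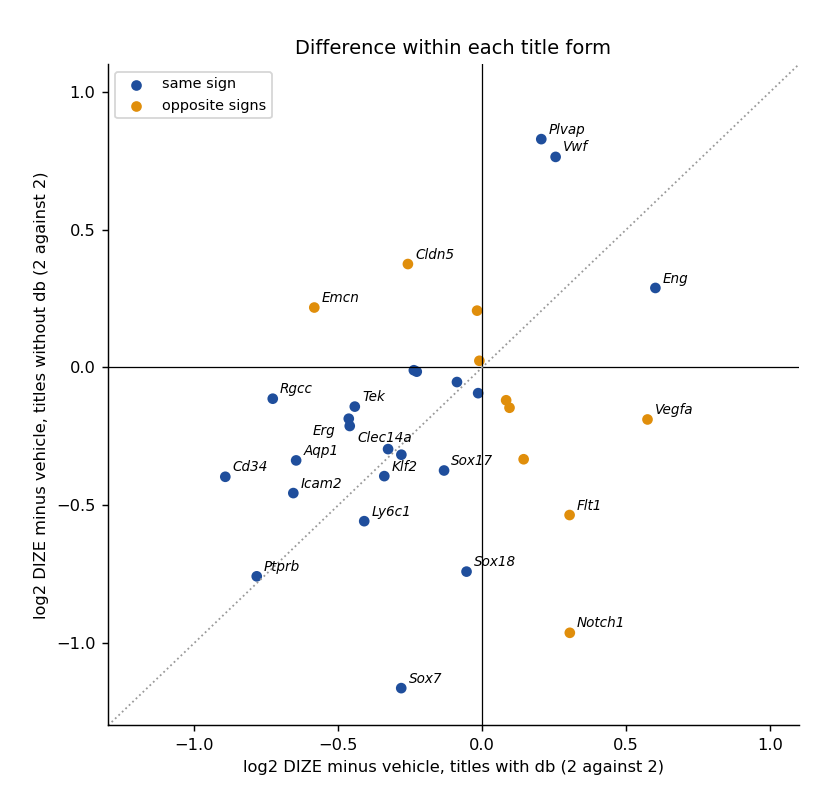
Log2 fold change, DIZE minus vehicle, of the 32 genes in the libraries with the letters db in the title (horizontal axis) against those without (vertical axis), each from 2 vehicle and 2 DIZE libraries. 19 genes lie below 0 on both axes and 3 above 0 on both, with Notch1, Flt1 and Vegfa among the 10 of opposite sign.

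The fold changes of all genes varied with GC content, for a reason that was not tested. With genes split into 3 equal classes at 46.5% and 52.8% GC, the median log2 fold change over all genes was -0.12, -0.02 and 0.15 from the lowest to the highest class. The 32 genes had 40.7% to 61.6% GC, and their medians in the same classes were -0.30 (5 of 5 lower), -0.26 (9 of 11 lower) and -0.09 (11 of 16 lower). After removal of the trend that each library showed on GC content and length, the median of the 32 was -0.22 and that of all genes 0.03. In that fit none of the 32 and 0.3% of all genes passed, and Cd34 was at -0.43 (edgeR adjusted p = 0.242), Ptprb at -0.60 (0.132), Icam2 at -0.56 (0.0727), Egfl7 at -0.52 (0.0935), Tie1 at -0.39 (0.227), Dll4 at -0.22 (0.508), Robo4 at -0.19 (0.332) and Eng at 0.23 (0.426).

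Of the other genes of the pathways to which the 32 belong, none passed the edgeR test in any of 11 lists, and what follows are values. Among 10 VEGF ligands, receptors and coreceptors, 5 were lower and 5 higher (median log2 0.01); the coreceptors Nrp1 and Nrp2 were at -0.56 ± 0.20 and -0.53 ± 0.25 (edgeR adjusted p = 0.175 and 0.274) and the ligand gene Vegfb at 0.32 ± 0.17 (edgeR adjusted p = 0.312). Of 6 angiopoietin and Tie genes 3 were lower, with the Tek ligand Angpt1 at 0.21 ± 0.29. Of 14 Notch genes 9 were lower (median -0.05), and the Notch targets differed in sign, with Hes1 at 0.56 ± 0.17 and Hey1 at -0.66 ± 0.23 (edgeR adjusted p = 0.1398 and 0.169).

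In BMP and ALK1 signalling, the pathway of endoglin, 9 of 14 tested genes were lower (median -0.11). Smad5, which carries the BMP signal to the nucleus, was at 68.3 ± 8.57 CPM in vehicle and 49.3 ± 3.82 CPM in DIZE with no overlap (log2 -0.47 ± 0.12, edgeR adjusted p = 0.106), and the target Id1 was at -0.65 ± 0.20 (edgeR adjusted p = 0.138). The ligand gene Bmp6 was at 41.0 ± 2.89 and 55.9 ± 7.58 CPM, also with no overlap (log2 0.45 ± 0.12, edgeR adjusted p = 0.118). Of 5 tested endothelin genes 3 were higher (median 0.43), with Edn1, the peptide's gene, at 3.47 ± 0.645 and 5.17 ± 1.09 CPM and the converting enzyme gene Ece1 at 0.43 ± 0.16 (edgeR adjusted p = 0.202 and 0.186). Ednrb and Edn1 therefore had opposite signs.

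Of 16 tested hypoxia response genes 10 were higher (median 0.13), Vegfa among them, and their summed level did not overlap between the groups, at 2687 to 3561 CPM in vehicle and 3630.1 to 3820 CPM in DIZE. Hif1a, the oxygen-regulated factor, had the smallest p of all lists, at 96.9, 97.7, 106 and 96.6 CPM in vehicle and 124, 156, 157 and 158 CPM in DIZE (edgeR adjusted p = 0.0815, log2 0.58 ± 0.11). Every DIZE library lay above every vehicle library. Epas1, its endothelial relative, did not overlap either, at 566 ± 130.1 and 750.5 ± 30.9 CPM (log2 0.41 ± 0.16, edgeR adjusted p = 0.205), and it made up a sizeable part of the sum. In the same list, 1 gene had every DIZE library below every vehicle library.

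Of 11 tested shear stress genes, the list of Klf2, 9 were lower (median -0.23). Their sums, 1260.2 to 1525 CPM in vehicle and 1031 to 1209 CPM in DIZE, did not overlap, but the groups overlapped for every tested gene of the list. Adgrf5, at 481 and 350 CPM, made up a sizeable part of the sums. It was at -0.46 ± 0.15 and Cav1 at -0.56 ± 0.20 (edgeR adjusted p = 0.150 and 0.172), whereas Asb4 was at 0.74 ± 0.20 (edgeR adjusted p = 0.112). Tip cell and sprouting genes were lower for 9 of 12 (median -0.05), with Apln at -0.82 ± 0.29 and Esm1 at -0.85 ± 0.40 (edgeR adjusted p = 0.170 and 0.273). Of 17 tested other endothelial transcription factors 9 were lower (median -0.08), and Meox2, a factor of heart capillaries that also stands on the lipid uptake list, was at 26.1 ± 3.54 and 17.8 ± 1.96 CPM with no overlap (log2 -0.55 ± 0.14, edgeR adjusted p = 0.101). Lipid uptake genes were lower for 6 of 10 (median -0.24), and adhesion molecules induced by cytokines higher for 3 of 5 tested (median 0.05).

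By endothelial subtype, 7 of 10 capillary markers were lower (median -0.19), 8 of 11 arterial ones (median -0.22), 3 of 6 venous ones (median -0.06) and 4 of 6 lymphatic ones (median -0.04), while 5 of 8 endocardial markers were higher (median 0.35). Of the 5 subtype sums, those of 2 lists did not overlap between the groups: the endocardial one, at 375 to 463 CPM in vehicle and 479 to 660 CPM in DIZE, and the lymphatic one, at 157 to 182 and 188 to 239 CPM. The endocardial markers went both ways, with log2 fold changes from -0.79 to 0.78. At an unadjusted edgeR p under 0.05, 3 of the 8 were higher (9.11% of all genes tested were) and 2 were lower (10.3% were). Plvap is on the endocardial list with Gata4 and Bmp6. Gata4, a factor that cardiomyocytes also express, was at 141 ± 38.7 and 242 ± 29.5 CPM (log2 0.78 ± 0.20, edgeR adjusted p = 0.102). It made up a large part of the endocardial sum, which therefore does not stand for all markers of that list. The endocardial list shares 2 genes with the 32 and the capillary list 2. Prox1, a lymphatic factor that cardiomyocytes express too, was at 63.8 ± 13.7 and 98.2 ± 8.66 CPM with no overlap (edgeR adjusted p = 0.105). It made up a large part of the lymphatic sum, which was higher although 4 of 6 lymphatic markers were lower.

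Markers of other heart cells gave these values beside the endothelial genes. Fibroblast markers were lower for 11 of 13 (median -0.21), macrophage markers for 10 of 12 (median -0.37) and pericyte and smooth muscle markers for 8 of 11 (median -0.09), while 10 of 13 cardiomyocyte markers were higher (median 0.08). The summed level of the 32 endothelial genes was 3635 to 4447 CPM in vehicle and 3228 to 3701 CPM in DIZE, and that of macrophages was 728 to 1378 and 729 to 762 CPM. Pericyte and smooth muscle sums were 1773 to 2175 and 1674 to 1854 CPM. Of the remaining lists, 5 of 6 tested atrial muscle (median -1.89), 5 of 7 mesothelial (median -0.19) and 3 of 4 Schwann cell markers (median -0.33) were lower. The atrial muscle sum was 938, 210, 118 and 469 CPM in vehicle 1 to 4 and 109.5 to 255 CPM in DIZE, so the groups overlapped. Also lower were 1 of 1 tested lymphocyte, 2 of 2 platelet and 5 of 5 red cell markers (median -1.79 for red cells), and 1 of 1 tested adipocyte marker was higher. Lymphocyte markers summed to 2.63 to 7.49 CPM over all libraries, with Cd3d and Cd3e at 0.07 and 0.09 CPM. The part of these cells in the endothelial values was not tested.

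**Figure D5:**
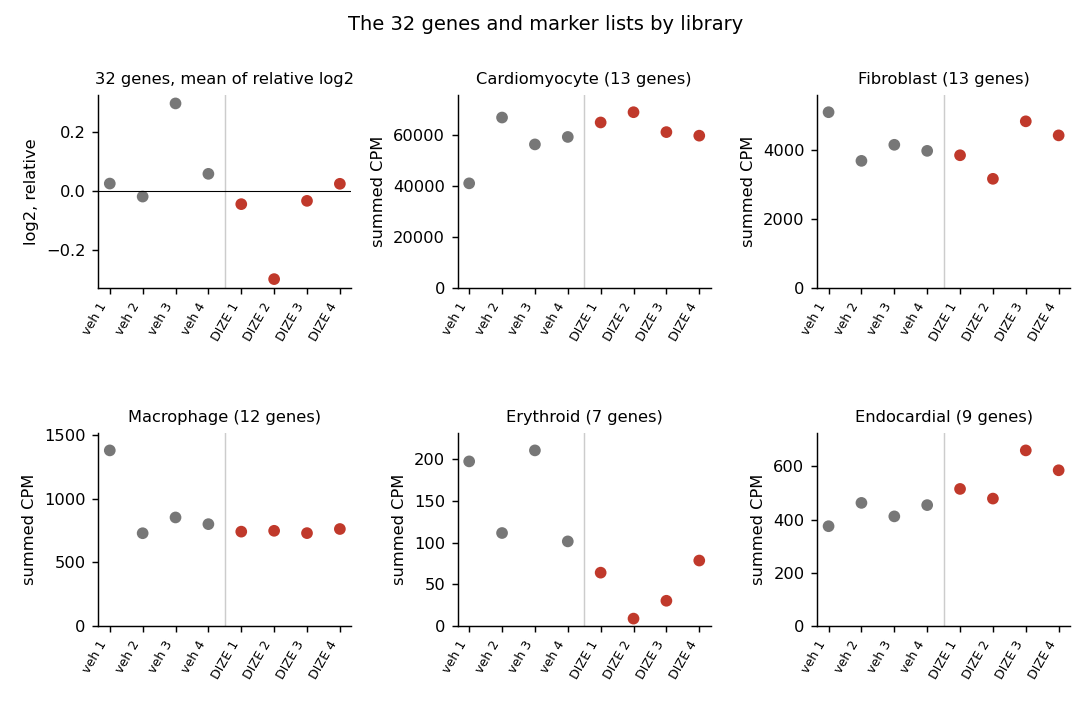
Per library, vehicle in grey and DIZE in red: the mean over the 32 endothelial genes of log2 CPM relative to each gene's mean (first panel), and the summed level in CPM of 5 marker lists (other panels, axes from 0). The red cell and endocardial sums do not overlap between the groups, and the macrophage, fibroblast and cardiomyocyte sums do.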

How the data were processed

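Heart RNA of db/db mice was measured by RNA-seq in 8 libraries, 4 vehicle and 4 DIZE, grouped by the treatment that the labels give. Per the labels' protocols, poly(A) RNA was made into stranded libraries and sequenced as read pairs. Tools named in the submitters' processing notes are STAR 2.7.3, HTSeq 0.6.1p1, edgeR and R 4.1, with the build mm10; for the annotation release and the strand setting of the counting nothing is given in the sources used here. Values were deposited as raw counts of reads for each Ensembl gene, which the authors had not normalized. Columns were tied to samples by the description in the labels, and 0 columns belonged to other samples. Symbols and positions came from the GENCODE annotation on GRCm38, for 55227 genes, with 260 unmatched. No pair of libraries agreed within sampling noise (lowest chi-square per degree of freedom 5.54).

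Counts were tested with edgeR 4.0.16 in R 4.3.3 (TMM, filterByExpr with minimum count 10 and minimum total 15, robust quasi-likelihood fit, two-sided, no covariate), with Benjamini-Hochberg adjustment over all 13648 genes tested and a threshold of 0.05. CPM and log2 fold changes were computed here from the deposited counts; the lowest depth was 7447664 counts, and counting error is largest for the low genes. Alternatives were RLE and upper quartile factors, DESeq2 1.42.0, limma-voom (limma 3.58.1) with library weights, no filter, a mean of at least 1 CPM, title form or title number as a block, removal of the trend on GC content and length, and leaving out each library in turn. The scripts were tested on simulated data. Of the genes outside the 32, up to 4 per pathway or endothelial subtype list are named, those with the smallest unadjusted p, and for cell types the 2 most abundant markers; any other was named after its values were seen. The 32 genes, the 27 lists, the roles and the tests were chosen with earlier results of these data known.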

Additional observations from a re-analysis of the deposited data

Results flagged for a closer look

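In 64 groups of 4 libraries (32 genes in each treatment), 3 held 1 library set far apart from the other 3 by Dixon's criterion, where chance gives about 1 in 20. For Egfl7, vehicle 3 had 130.2 CPM and vehicle 1, 2 and 4 had 98.1 to 103 CPM, and its log2 fold change was -0.22 without that library. For Sox18, vehicle 3 had 110.2 CPM and the rest of the group 51.8 to 61.3 CPM, and its log2 fold change was -0.14 without it. For Rgcc, vehicle 1 had 67.8 CPM and the rest 44.1 to 47.2 CPM, and its log2 fold change was -0.25 without it.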

How the results depend on the processing

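Over all genes, the 3 higher and 2 lower calls became 263 and 343 under DESeq2, 223 and 338 under limma-voom with library weights, 160 and 226 without a filter on low counts, 22 and 19 with the trend on GC content and length removed, 5 and 4 with title form as a block, and 0 and 0 with the title number as a replicate block; a mean of at least 1 CPM left 1 lower call. Leaving out each library in turn gave 0 to 44 higher and 0 to 196 lower calls, the most without vehicle 2. Of the 32 genes, 3 passed under DESeq2, 2 under limma-voom and 2 without a filter (Ptprb and Sox7), 0 under the other 6 alternatives and 0 in the 8 fits with a library left out. Whether the numbers in the titles pair the libraries cannot be told from these data. Same-numbered libraries had correlations of deviations from -0.14 to 0.02, and differently numbered ones from -0.22 to 0.14. Several libraries of each group share the number 4, which leaves their pairs undefined. With the title number as a replicate block, the median of the 32 genes was -0.21 and 24 were lower. Vehicle 4 and DIZE 3 have numbers that no other library has, so they add nothing to the treatment difference in that fit. Its changes therefore also reflect the loss of these libraries.

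The median of the 32 genes ran from -0.24 to -0.12 with a library left out and from -0.22 to -0.12 in the other alternatives. With a library left out, 5 to 13 genes were higher (13 without vehicle 3) and 5 to 9 were lower at an unadjusted p under 0.05 (5 without DIZE 2); in the other alternatives 6 to 9 were higher and 7 to 10 were lower at that p. Under limma-voom, Tek was at -0.16, Erg at -0.16, Rgcc at -0.23, Ednrb at -0.068, Pecam1 at -0.00028, Cldn5 at 0.42 and Flt1 at -0.27. The groups of Ly6c1 overlapped under RLE factors, which left 2 genes without overlap, and under upper quartile factors, where Sox7 took its place among 3; these 2 scalings of the overlap were chosen after seeing the data. Over the 9 other alternatives and the 8 fits with a library left out, 19 genes kept their sign throughout. The fits of each title form alone are not part of this count, and there Notch1, 1 of the 19, differed in sign (0.30 and -0.96). With the title number as a replicate block, signs turned for Cdh5 (-0.012), Flt1 (0.059), Cldn5 (-0.17), Robo4 (0.026), Mmrn2 (-0.091), Dll4 (0.036) and Klf2 (0.013). Under limma-voom they turned for Tie1 (0.016), Emcn (0.12), Esam (0.016) and Vegfa (-0.028), with the GC trend removed for Emcn (0.051), Cldn5 (-0.0097), Fli1 (0.023) and Mmrn2 (-0.11), and with upper quartile factors for Mmrn2 (-0.0023). With a library left out, log2 fold changes that turned ran from -0.00092 to 0.28 for Cdh5, -0.27 to 0.17 for Kdr, -0.21 to 0.019 for Flt1, -0.20 to 0.021 for Tie1, -0.29 to 0.035 for Emcn, -0.12 to 0.038 for Esam, -0.082 to 0.29 for Cldn5, -0.13 to 0.0072 for Fli1, -0.11 to 0.053 for Robo4, -0.063 to 0.14 for Mmrn2, -0.17 to 0.097 for Dll4 and -0.0012 to 0.29 for Vegfa. The causes were not tested. Each of the 32 genes had at least 80 reads in every library, so counting error was small beside that of genes near the filter.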
